A study of Mus musculus with 2 samples.

Results

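The protein components of the cytosolic ribosome were followed in mouse heart after delivery of a synthetic copy (mimic) of CHAPIR, a piRNA, or of a scrambled negative control (NC). Genes were taken as members by symbol, as Rpl or Rps followed by a number, by p0 to p2 or by a, leaving out pseudogene symbols and the Rps6k kinases. The table held 84 such genes among 12384 gene symbols, out of 86 protein-coding genes that the annotation names this way. Of the 84, 77 encode standard ribosomal proteins (46 of the large subunit and 31 of the small subunit), 6 are paralogs (Rpl3l, Rpl22l1, Rpl36al, Rpl7l1, Rps27l and Rps27rt), and Rps19bp1 encodes a partner of Rps19 and SIRT1 that is not a ribosomal protein. Both hearts came from C57BL/6 mice that carried an implanted osmotic minipump for 14 days and were sampled at 2 weeks. The CHAPIR mimic was dosed at 30 mg/kg, and the NC mimic was delivered by the same procedure. Each group held 1 library, so no difference below has a replicate check, no p-value can be given, and differences describe these 2 libraries.

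Ribosomes translate every cellular mRNA. The small subunit reads the codons, the large subunit joins the amino acids, and an acidic stalk on the large subunit recruits the elongation factors. Most of the proteins are present in about equal number in a finished ribosome. The mRNAs of these genes usually begin with a terminal oligopyrimidine tract, a run of C and T at the start of the transcript. Through this tract the kinase mTOR and the RNA-binding protein Larp1 control their translation. Striated muscle also makes Rpl3l, a paralog that takes the place of Rpl3 in some of its ribosomes.

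The 2 hearts differed in ways that bear on every comparison. Y-linked Ddx3y and Eif2s3y were at 21.6 and 22.1 FPKM (fragments scaled by transcript length and library size) in the CHAPIR heart and were listed at 0 in the NC heart, so apparent sex and mimic cannot be told apart. The heart label was borne out by cardiomyocyte markers, which summed to 32333 FPKM in the CHAPIR heart and 34694 FPKM in the NC heart, with all 18 detected in both and a median log2 ratio of -0.16. All 12 macrophage markers were higher in the CHAPIR library (summed level 495 against 290 FPKM), as were all 8 tested markers of other leukocytes (45.8 against 14.5 FPKM) and all 6 tested red cell markers (3041 against 2407 FPKM). All 11 tested white adipocyte markers were lower, with a median log2 ratio of -1.62 and 7 of them past 2-fold. Their summed level of 492 against 592 FPKM was mostly Fabp4, which endothelium also makes, at 422 FPKM in the CHAPIR heart and 423 FPKM in the NC heart. The part of cell composition in the values below was not tested, and fewer cells of a type and less RNA per cell cannot be told apart in bulk tissue.

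Ribosomal protein genes took a nearly equal share of both libraries. Their values summed to 15654 FPKM in the CHAPIR heart and 15480 FPKM in the NC heart, which was 3.90% and 3.92% of all gene values. Multiplied by transcript length, which undoes the length scaling, they made up 1.72% of the listed fragments in the CHAPIR heart and 1.72% in the NC heart. With mitochondrially encoded genes set aside, those shares were 2.14% in the CHAPIR heart and 2.10% in the NC heart. The large subunit genes summed to 8888 FPKM in the CHAPIR heart and 8799 FPKM in the NC heart, and the small subunit genes to 6495 FPKM in the CHAPIR heart and 6403 FPKM in the NC heart. None of the 84 genes was listed at 0 in either library, and all 84 passed the low-value filter, which asked for 1 FPKM in either heart.

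The difference of a gene is given as the log2 ratio, the log2 of the CHAPIR value plus 1 less the log2 of the NC value plus 1. This scale shrinks differences at low levels. The median log2 ratio of the 84 genes was 0.00, beside 0.01 over all 11406 genes tested, with 43 genes above 0 and 41 below. At 1.5-fold, 1 gene (Rps20) was higher and 1 (Rpl22l1) was lower in the CHAPIR library, which is 2.38% of the 84. Over all genes tested 10.7% lay past 1.5-fold, 6.8% higher and 3.85% lower in the CHAPIR library. Genes at low levels vary more, and among the 1586 genes outside the family in the level range of the 77 standard members 5.49% lay past 1.5-fold. Among the 374 outside genes at a mean of 100 FPKM or more the share was 4.55%, beside 0 of the 68 family members at that level. The SD of the log2 ratio over the 77 standard genes was 0.18, beside 0.37 over the 1586 genes in their level range. The interquartile range of the standard genes ran from -0.05 to 0.08, and that of the 1586 genes from -0.16 to 0.07. Within 0.25 log2 units of 0 lay 88.3% of the standard genes and 79.1% of the 1586 genes. The 1586 genes share only the range and are not matched for level. Their median level was 44.9 FPKM in the CHAPIR heart and 45.8 FPKM in the NC heart, against 179 and 171 FPKM for the standard genes. At a mean of 100 FPKM or more the SD was 0.15 over the 68 members and 0.34 over the 374 outside genes. Large and small subunit genes had the same median of 0.01, with an SD of 0.14 and 0.22.

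**Figure D1:**
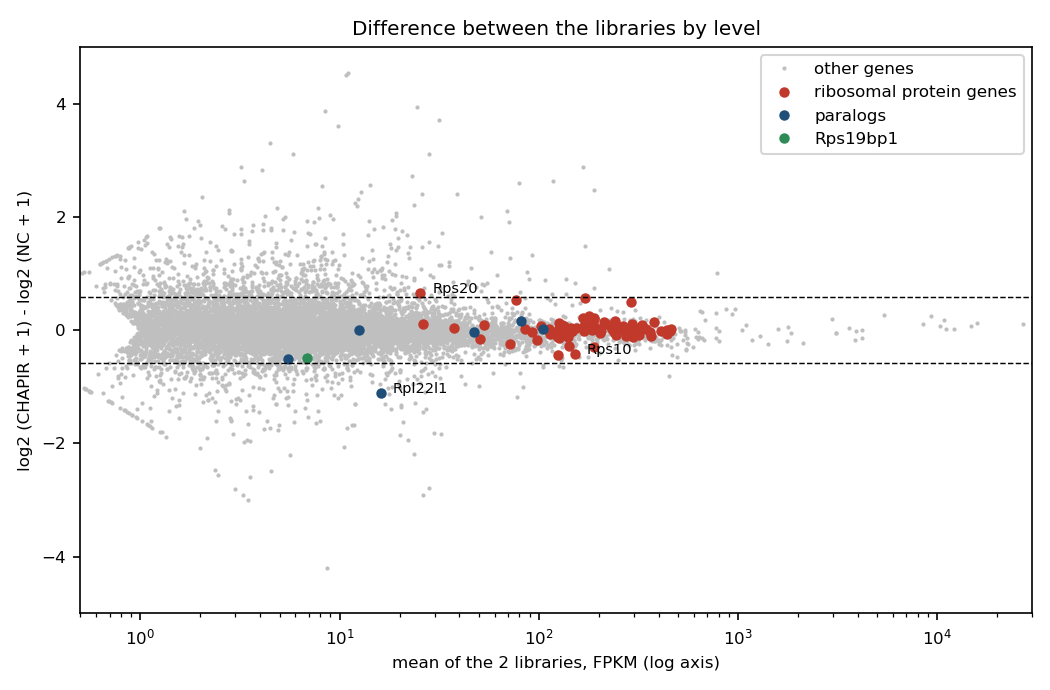
Log2 ratio of CHAPIR over NC (y axis) against the mean level of the 2 libraries in FPKM (x axis, log scale) for each gene tested, with the ribosomal protein genes, their paralogs and Rps19bp1 in colour and dashed lines at 1.5-fold. The coloured points lie close to 0 at levels of 100 FPKM or more, and Rpl22l1 (-1.12) and Rps20 (0.65) are the members past the lines.

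The letters around the start sites of these genes were searched for the tract for which the family is known. Promoter sequences from RefSeq on GRCm38.p6, 250 bases before to 50 after each start, matched 64 of the 84 genes with 76 start sites. A run of 8 or more C or T on the gene's strand, within 30 bases either side of the start, was present at 36 of the 76 sites (47.4%), beside 22.9% of all 32851 promoters in that collection. Such a run, called a tract here, can lie wholly before or after the annotated start, so it need not open the mRNA. The motif CCGGAAG, the core letters to which ETS factors such as Gabpa bind, was found on either strand within the 300 bases at 26 of 76 sites (34.2%) and at 8.86% of all promoters. The motif TATAAA was found at 9.21% of the sites and 13.6% of all promoters. The lines below give the 15 bases before and the 15 bases after the annotated start, with the longest run of C or T in capitals. The first 4 are examples of a long tract, the next 4 are genes low in the CHAPIR library, of which Rpl24 has no tract, and the last 3 are 2 genes high in the CHAPIR library and the muscle paralog.
Rpl7a, chr2:26910792-26910821, plus strand: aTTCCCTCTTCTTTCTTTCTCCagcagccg
Rpl35, chr2:39005117-39005146, minus strand: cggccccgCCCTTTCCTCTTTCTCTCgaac
Rpl14, chr9:120571502-120571531, plus strand: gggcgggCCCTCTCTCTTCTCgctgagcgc
Rplp2, chr7:141447636-141447665, plus strand: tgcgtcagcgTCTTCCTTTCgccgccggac
Rpl27a, chr7:109519180-109519209, plus strand: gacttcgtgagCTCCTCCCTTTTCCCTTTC
Rps10, chr17:27635230-27635259, minus strand: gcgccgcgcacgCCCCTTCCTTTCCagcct
Rpl22l1, chr3:28805493-28805522, plus strand: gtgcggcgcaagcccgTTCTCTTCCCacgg
Rpl24, chr16:55966260-55966289, plus strand: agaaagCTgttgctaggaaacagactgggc
Rps16, chr7:28350674-28350703, plus strand: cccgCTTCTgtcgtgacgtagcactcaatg
Rpl41, chr10:128549154-128549183, minus strand: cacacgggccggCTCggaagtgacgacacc
Rpl3l, chr17:24727811-24727840, plus strand: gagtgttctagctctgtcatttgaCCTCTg
Rpl7a held a run of 21 letters and Rpl27a one of at least 19, cut by the end of the stretch shown. The longest run at this start of Rpl3l was 5 letters and that of Rpl41 was 3. The log2 ratio had a median of 0.01 and ran from -1.12 to 0.16 over the 34 genes with a tract at any listed start. Over the 30 without one the median was 0.00 and the ratio ran from -0.50 to 0.53. Among these 30 were Rps16, Rpl41 and Rpl23 at the high end and Rps27rt, Rps19bp1 and Rpl24 at the low end. Rps20 and Rpl30 matched no promoter in the collection, so they are in neither group. The difference between these groups was not tested. Absence of a tract says only that these letters are not at the RefSeq start, which can lie away from the start used in heart. Presence has the same limit, as some listed transcripts start outside the stretch shown. The listed transcript of Rpl35 starts at 39005624 and the most abundant one of Rplp2 at 141447370. Those of Rps10 start at 27636669, 27635545 and 27634475. The tracts shown for these genes therefore need not open the transcripts measured here.

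Levels spread widely between the standard genes. Mean levels of the 77 standard genes ran from 25.4 to 463 FPKM, a range of 18.2-fold. The interquartile range ran from 128 to 263 FPKM in the CHAPIR library and from 129 to 253 FPKM in the NC library, and 66 genes were at 100 FPKM or more in both. The order was led by Rpl23a, a protein at the exit of the peptide tunnel, at 467 FPKM in the CHAPIR heart and 459 FPKM in the NC heart. Next came the stalk gene Rplp1 at 453 FPKM in the CHAPIR heart and 455 FPKM in the NC heart. Rps15 was at 430 against 452 FPKM and Rps24 at 439 against 439 FPKM in the CHAPIR and NC hearts, and the order of these close neighbours has no replicate check. Over the 84 genes the log2 levels of both hearts correlated with Pearson r = 0.985, a description over genes that share each library.

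The standard genes under 50 FPKM in both libraries were Rps20, Rps15a and Rpl18, and their listed transcripts were long. Weighted by level, transcript length was 3706 bases for Rps20, 4381 for Rps15a and 2091 for Rpl18, beside a median of 817 over the 77 genes. FPKM divides by that length. With the length scaling undone, Rps20 was at 116 in the CHAPIR heart and 72.6 in the NC heart. On the same scale Rps15a was at 116 in the CHAPIR heart and 114 in the NC heart and Rpl18 at 77.3 in the CHAPIR heart and 79.6 in the NC heart, beside a median gene at 136 in the CHAPIR heart and 139 in the NC heart. These genes lay nearer to the median gene on that scale than in FPKM. The standard genes next in length were not under 50 FPKM. Rpl22 (2010 bases) was at 54.5 FPKM in the CHAPIR heart and 51.2 FPKM in the NC heart. Rpl5 (1991 bases) was at 137 against 131 FPKM and Rpsa (1911 bases) at 170 against 164 FPKM in the CHAPIR and NC hearts. The part of length in these levels was not tested.

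**Figure D2:**
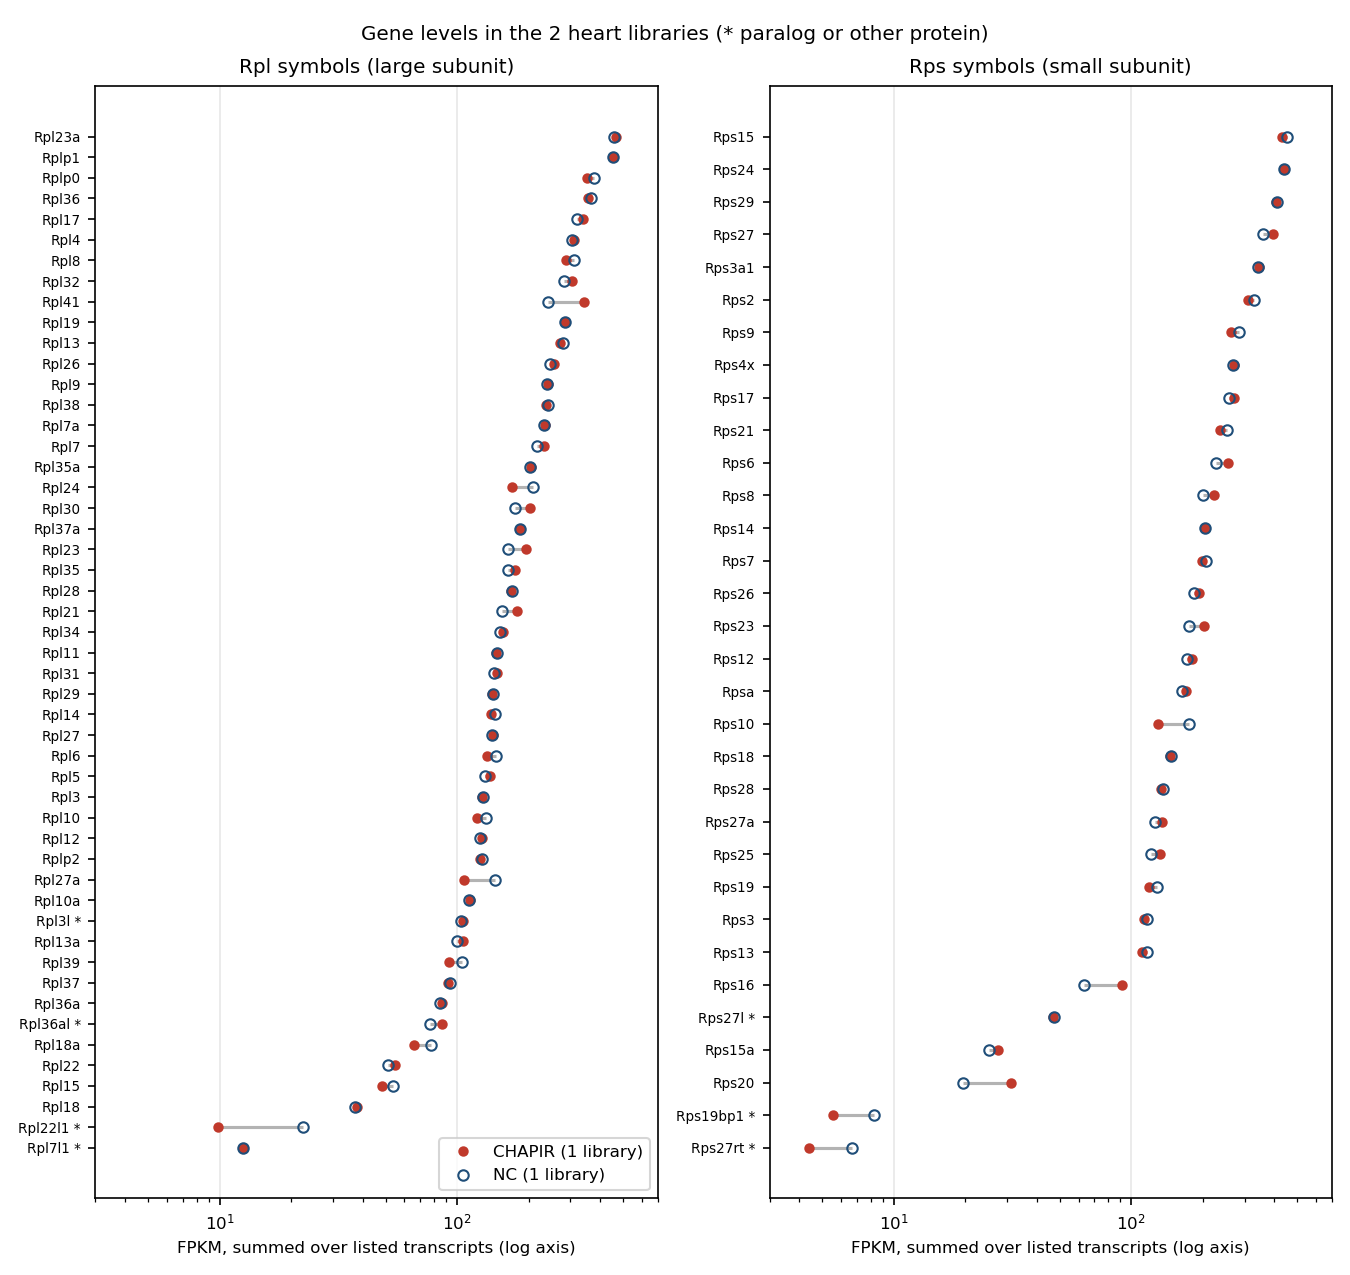
Level of ribosomal protein genes in FPKM (x axis, log scale), by large and small subunit symbol and ordered by mean, with a filled point for the CHAPIR library and an open point for the NC library. The points of most genes overlap, and the widest gap is that of Rpl22l1, at 9.82 in the CHAPIR heart and 22.5 in the NC heart.

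Among the highest ratios, small subunit genes were in front. Rps20 (chromosome 4, 3831334 to 3835665), a protein of the small subunit head, was at 31.3 FPKM in the CHAPIR heart and 19.6 FPKM in the NC heart, a log2 ratio of 0.65. Only 1 of its 3 annotated transcripts was listed, with 4 exons of which the last spans 3350 bases, so the value rests on that form alone. Rps16 (chromosome 7, 28350652 to 28353155), whose tail reaches the decoding centre, was at 91.5 FPKM in the CHAPIR heart and 63.1 FPKM in the NC heart, a log2 ratio of 0.53. Of the 31 standard genes of the small subunit, 18 lay within 0.1 log2 units of 0. Rps3a1 was 1 of these, at 346 FPKM in the CHAPIR heart and 342 FPKM in the NC heart. In the large subunit Rpl41 (chromosome 10, 128548114 to 128549305), the smallest ribosomal protein, was at 341 FPKM in the CHAPIR heart and 242 FPKM in the NC heart, a log2 ratio of 0.49. All 4 of its listed transcripts were higher in the CHAPIR library. Rpl23, one of the proteins that bind Mdm2, was at 195 FPKM in the CHAPIR heart and 163 FPKM in the NC heart, and Rpl30 at 203 FPKM in the CHAPIR heart and 175 FPKM in the NC heart, with log2 ratios of 0.25 and 0.21.

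At the low end, Rpl27a (chromosome 7, 109519147 to 109522367), a large subunit protein, was at 106 FPKM in the CHAPIR heart and 144 FPKM in the NC heart, a log2 ratio of -0.43. Rps10 (chromosome 17, 27630418 to 27636669), a protein of the small subunit head, was at 130 FPKM in the CHAPIR heart and 174 FPKM in the NC heart, a log2 ratio of -0.42. Rpl24, which forms a bridge to the small subunit, was at 171 FPKM in the CHAPIR heart and 209 FPKM in the NC heart, a log2 ratio of -0.29. None of these standard genes reached 1.5-fold. Rps19bp1 was at 5.54 FPKM in the CHAPIR heart and 8.23 FPKM in the NC heart, and the retrogene Rps27rt at 4.41 FPKM in the CHAPIR heart and 6.66 FPKM in the NC heart, both near -0.50 on the log2 scale and both at levels where genes vary more. The acidic stalk genes were close to 0 together, with Rplp0 at 353 against 379 FPKM, Rplp1 as above and Rplp2 at 125 against 127 FPKM in the CHAPIR and NC hearts.

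The paralogs held the member with the widest difference. Rpl22l1 (chromosome 3, 28805436 to 28807424), a paralog of the RNA-binding protein Rpl22, was at 9.82 FPKM in the CHAPIR heart and 22.5 FPKM in the NC heart, a log2 ratio of -1.12. Both of its listed transcripts were lower, ENSMUST00000194649.1 at 6.53 FPKM in the CHAPIR heart and 16.1 FPKM in the NC heart, and ENSMUST00000043867.10 at 3.29 FPKM in the CHAPIR heart and 6.41 FPKM in the NC heart. Rpl22 itself was at 54.5 FPKM in the CHAPIR heart and 51.2 FPKM in the NC heart, so Rpl22l1 made up 15.3% of the pair in the CHAPIR heart and 30.5% in the NC heart. The muscle paralog Rpl3l (chromosome 17, 24727820 to 24736143) was nearly as abundant as Rpl3 and its share was alike in both hearts. Rpl3l was at 105 FPKM in the CHAPIR heart and 104 FPKM in the NC heart, and Rpl3 at 127 FPKM in the CHAPIR heart and 129 FPKM in the NC heart, so Rpl3l made up 45.4% of the pair in the CHAPIR heart and 44.7% in the NC heart. Most of Rpl3l came from the full transcript of 10 exons, ENSMUST00000170239.8, at 102 FPKM in the CHAPIR heart and 98.3 FPKM in the NC heart.

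The remaining paralogs differed little. Rps27l, known as a p53 target, was at 46.6 FPKM in the CHAPIR heart and 47.5 FPKM in the NC heart, beside Rps27 at 395 FPKM in the CHAPIR heart and 359 FPKM in the NC heart. Rpl36al was at 86.2 FPKM in the CHAPIR heart and 77.0 FPKM in the NC heart, close to the level of its X-linked counterpart Rpl36a at 86.1 FPKM in the CHAPIR heart and 84.4 FPKM in the NC heart. Rpl7l1 was at 12.6 FPKM in the CHAPIR heart and 12.5 FPKM in the NC heart, beside Rpl7 at 232 FPKM in the CHAPIR heart and 218 FPKM in the NC heart. The X-linked members, of interest because apparent sex differed, showed no shared direction. Rps4x was at 270 FPKM in the CHAPIR heart and 268 FPKM in the NC heart. Rpl10 was at 121 FPKM in the CHAPIR heart and 133 FPKM in the NC heart, and Rpl39, which lines the peptide tunnel, at 92.4 FPKM in the CHAPIR heart and 104 FPKM in the NC heart. By contrast Eif2s3x, an X-linked gene known to escape inactivation, was at 21.6 FPKM in the CHAPIR heart and 36.7 FPKM in the NC heart.

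Reads of this family are hard to assign, because many members share sequence with other annotated genes, processed pseudogenes among them. Of all 50-base windows of a member's most abundant listed transcript, a median of 49.6% occurred letter for letter in a transcript of another annotated gene, and 41 of the 84 members shared 50% or more. Rps27 shared 98.6% of its windows with Rps27rt, and Rpl10 shared 92.1% with Rpl10-ps3. Rpl22l1 shared 52.7%, Rps20 7.44% and Rps10 51.8%, whereas Rpl3l and Rps19bp1 shared none. For Rps10 the main partner was the gene annotated as RPS10-NUDT3, with 50.8% of the windows. The median log2 ratio was -0.00 over the 41 members that shared 50% or more and 0.02 over the other 43. The ratio ran from -1.12 to 0.16 in the members that shared 50% or more and from -0.50 to 0.65 in the others, a difference that was not tested. The sources used here do not say how such reads were shared out, and the values of Rps27 and Rps27rt in particular are uncertain.

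Steady gene values covered wider differences between the transcripts of a gene. The 84 genes had 196 listed transcripts, all annotated as protein coding, with 35 genes on 1 transcript and 49 on 2 to 6. Of the 189 transcripts at 1 FPKM or more in either heart, 45 lay past 1.5-fold (23.8%), 25 higher and 20 lower in the CHAPIR library, beside 29.9% of all transcripts at that level. At a mean of 10 FPKM or more, 19 of 122 did (15.6%), beside 13.3% of the transcripts of other genes, so the members' share lay near the background. Member transcripts tagged incomplete in the annotation were past 1.5-fold in 13 of 29 cases (44.8%), and the others in 32 of 160 (20%). The same split over all genes is not given and level was not matched, so it cannot be read as a trait of the members. In 6 of the 49 genes with several transcripts (12.2%) 1 was higher and another lower past 1.5-fold, beside 27.3% of 4184 such genes outside the family. The outside genes were not matched for level, so these 2 shares are not like for like.

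Rps27a, which makes a ribosomal protein fused to ubiquitin, gave the clearest example. ENSMUST00000102844.3, of 5 exons, was at 76.2 FPKM in the CHAPIR heart and 13.8 FPKM in the NC heart, and ENSMUST00000102845.10, of 6 exons with an upstream start, at 59.0 FPKM in the CHAPIR heart and 113 FPKM in the NC heart. The shorter form thus held 56.4% of the gene in the CHAPIR heart and 10.9% in the NC heart, while the gene summed to 135 FPKM in the CHAPIR heart and 126 FPKM in the NC heart. Rps19, mutated in Diamond-Blackfan anaemia in people, had its form with the long upstream exon, ENSMUST00000108430.9, at 27.9 FPKM in the CHAPIR heart and 66.0 FPKM in the NC heart. Higher past 1.5-fold were its incomplete forms ENSMUST00000153451.8, at 5.66 FPKM in the CHAPIR heart and 1.26 FPKM in the NC heart, and ENSMUST00000156372.7, at 3.15 FPKM in the CHAPIR heart and listed at 0 in the NC heart. Its most abundant form ENSMUST00000108429.7, at 78.0 FPKM in the CHAPIR heart and 56.8 FPKM in the NC heart, stayed under 1.5-fold, and the gene was at 119 FPKM in the CHAPIR heart and 129 FPKM in the NC heart.

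The low ratio of Rps10 came from 1 of its 3 listed transcripts. ENSMUST00000114882.7, which opens with an exon of 342 bases, was at 38.6 FPKM in the CHAPIR heart and 91.4 FPKM in the NC heart. The other transcripts were at 52.4 against 50.2 FPKM and 38.8 against 32.8 FPKM in the CHAPIR and NC hearts. The stalk gene Rplp0 held the widest transcript difference of the family in ENSMUST00000156359.1, tagged incomplete, at 0.45 FPKM in the CHAPIR heart and 65.5 FPKM in the NC heart. The full form ENSMUST00000086519.11 was at 320 FPKM in the CHAPIR heart and 286 FPKM in the NC heart. The remaining genes with opposite transcripts were Rps14, Rpl34, Rpl31 and Rps27, whose gene ratios lay between -0.01 (Rps14) and 0.14 (Rps27). In Rps14 the incomplete form ENSMUST00000137400.7 was at 47.1 FPKM in the CHAPIR heart and 18.6 FPKM in the NC heart, and in Rpl34 the incomplete form ENSMUST00000196202.4 at 44.8 FPKM in the CHAPIR heart and 21.3 FPKM in the NC heart. In Rpl31, ENSMUST00000194746.5 was at 5.54 FPKM in the CHAPIR heart and 1.49 FPKM in the NC heart.

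**Figure D3:**
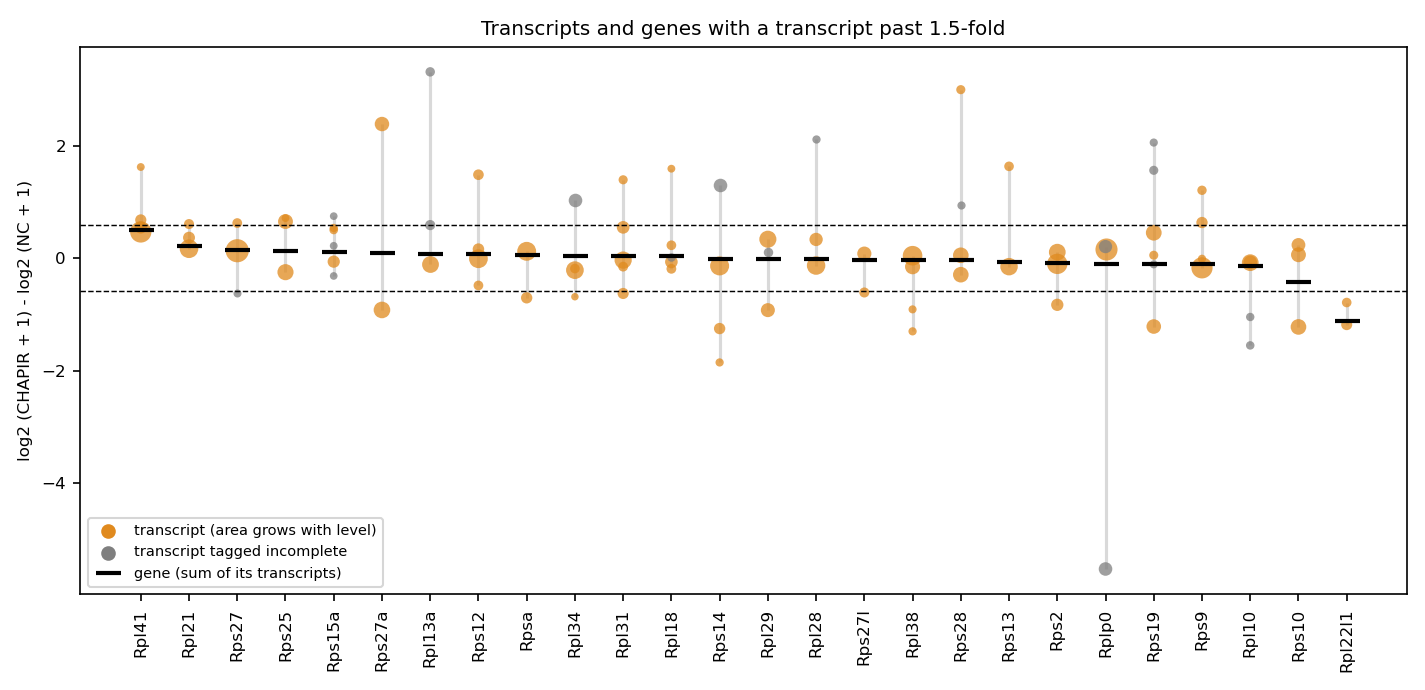
Log2 ratio of CHAPIR over NC (y axis) for each transcript at 1 FPKM or more, in genes with several such transcripts of which at least 1 lay past 1.5-fold (dashed lines). Points are transcripts, with an area that grows with level and grey for those tagged incomplete, and the black bars are the gene sums, which stay near 0 for most genes while points spread, the lowest being a transcript of Rplp0 at -5.52.

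Rps24 shows a family member whose alternative ends were stable. Its transcripts end with different short exons, which set the last codons of the protein and are the regulated part of this gene. The stretches where the coding sequence ends, on the plus strand of GRCm38, are given with the stop codon in capitals.
18-base exon, chr14:24494052-24494069: aaaTGAaatacctagcag
20-base exon, chr14:24495430-24495449: TGAgtggagattggatacag
last exon when both are skipped, chr14:24495775-24495786: ccaaaggagTAG
The form with the 18-base exon, which adds 3 coding bases before its stop, was at 332 FPKM in the CHAPIR heart and 341 FPKM in the NC heart. It made up 75.6% of Rps24 in the CHAPIR heart and 77.7% in the NC heart. Forms with the 20-base exon alone made up 17.8% in the CHAPIR heart and 17.8% in the NC heart. Forms with neither full exon made up 6.62% in the CHAPIR heart and 4.55% in the NC heart, and among them ENSMUST00000225023.1, which adds 9 coding bases, was at 23.9 FPKM in the CHAPIR heart and 16.7 FPKM in the NC heart.

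Some ribosomal proteins have symbols outside the Rpl and Rps series. Fau, which makes a small subunit protein fused to a ubiquitin-like domain, was at 192 FPKM in the CHAPIR heart and 187 FPKM in the NC heart. Rack1, a signalling scaffold on the small subunit head, was at 118 FPKM in the CHAPIR heart and 145 FPKM in the NC heart, a log2 ratio of -0.30.

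Genes that build ribosomes or work beside them showed few differences. Of 62 ribosome assembly genes, 0 were past 1.5-fold in either direction, beside 10.7% of all genes tested. Their median log2 ratio was 0.08, beside 0.01 over all genes tested. Nob1, which cuts the end of small subunit RNA, was at 5.37 FPKM in the CHAPIR heart and 3.45 FPKM in the NC heart, and the snoRNP protein Nop56 at 8.66 FPKM in the CHAPIR heart and 6.41 FPKM in the NC heart. At the low end Lsg1, a GTPase of late large subunit assembly, was at 4.12 FPKM in the CHAPIR heart and 6.33 FPKM in the NC heart, and Rrp9 at 6.36 FPKM in the CHAPIR heart and 8.33 FPKM in the NC heart. Of 22 elongation factors and related translation genes, 0 were past 1.5-fold, beside 10.7% of all genes tested, with a median of -0.00. Tpt1 was at 717 FPKM in the CHAPIR heart and 569 FPKM in the NC heart. Eef1d, a subunit of the elongation factor exchange complex, was at 79.7 FPKM in the CHAPIR heart and 57.0 FPKM in the NC heart, a ratio that became -1.89 on the log2 scale with complete transcripts only. The lowest were the elongation factor kinase Eef2k at 6.31 FPKM in the CHAPIR heart and 8.47 FPKM in the NC heart and the nucleolar chaperone Npm1 at 79.3 FPKM in the CHAPIR heart and 99.5 FPKM in the NC heart.

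The 19 listed genes of RNA polymerase I and its cofactors, which transcribe ribosomal RNA, had a median of -0.12. Past 1.5-fold lay 2 of them, both higher (10.5%, beside 10.7% of all genes tested in either direction and 6.8% higher). These were the promoter selectivity factor subunits Taf1b, at 5.15 FPKM in the CHAPIR heart and 0.40 FPKM in the NC heart, and Taf1d, at 1.45 FPKM in the CHAPIR heart and 0.28 FPKM in the NC heart, low levels at which the ratio depends on the pseudocount. The lowest were Polr1e at 8.52 FPKM in the CHAPIR heart and 11.1 FPKM in the NC heart, whose log2 ratio of -0.34 became 1.63 with complete transcripts only, and Polr2h at 4.90 FPKM in the CHAPIR heart and 5.99 FPKM in the NC heart. The list of mTOR pathway genes and other regulators had 30 listed genes and a median of -0.02. Past 1.5-fold lay 2 of them, both higher (6.67%, beside 10.7% of all genes tested in either direction and 6.8% higher). Rps6kb2, a kinase of ribosomal protein S6, was at 4.71 FPKM in the CHAPIR heart and 1.66 FPKM in the NC heart. Tsc2, an inhibitor of mTOR signalling, was at 21.7 FPKM in the CHAPIR heart and 13.8 FPKM in the NC heart, and its log2 ratio of 0.62 became -0.44 with complete transcripts only. The cap-binding factor Eif4e was at 24.3 FPKM in the CHAPIR heart and 33.3 FPKM in the NC heart, a log2 ratio of -0.44 that became 1.79 when values were multiplied by transcript length, and Lamtor1 was at 41.1 FPKM in the CHAPIR heart and 47.7 FPKM in the NC heart.

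Genes with mitochondrial ribosomal protein symbols were centred slightly below 0, as were other genes of substantial level. They were taken as Mrpl or Mrps followed by a number, and their place in the mitochondrial ribosome was not checked gene by gene. The 78 listed genes had a median log2 ratio of -0.09, with 22 above 0 and 56 below. Genes outside the cytosolic family had a median of -0.09 at 100 FPKM or more, with 115 above 0 and 259 below, and of -0.05 in the level range of the standard members, with 625 above and 961 below. At 1.5-fold, 2 of the 78 were higher and 1 was lower (3.85%, beside 10.7% of all genes tested). They summed to 2245 FPKM in the CHAPIR heart and 2358 FPKM in the NC heart. Past 1.5-fold lay Mrpl32, at 7.96 FPKM in the CHAPIR heart and 4.21 FPKM in the NC heart, Mrpl53, at 3.13 FPKM in the CHAPIR heart and 1.65 FPKM in the NC heart, and Mrps16, at 5.56 FPKM in the CHAPIR heart and 8.96 FPKM in the NC heart, all components of the mitochondrial subunits. Median levels of the 78 genes were 22.8 FPKM in the CHAPIR heart and 24.5 FPKM in the NC heart, against 169 and 160 FPKM for the 84 cytosolic genes. The difference between the 2 sets was not tested, as each heart gave 1 library.

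**Figure D4:**
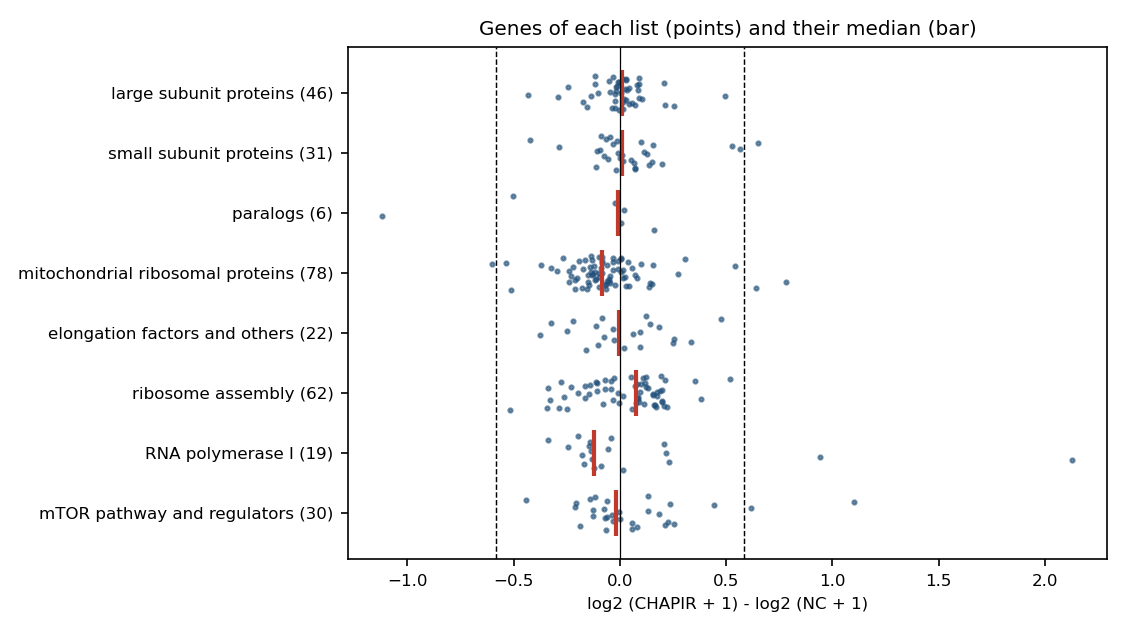
Log2 ratio of CHAPIR over NC (x axis) for the tested genes of each list (points, with the number of genes in brackets), the median of the list (red bar) and dashed lines at 1.5-fold. Medians of the large and small subunit genes lie at 0.01, that of the mitochondrial ribosomal proteins at -0.09 and that of the ribosome assembly genes at 0.08.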

How the data were processed

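Values for 2 libraries were deposited by transcript (Ensembl identifiers) and treated as FPKM computed by the authors. The unit was inferred from the values, since neither the labels nor the header names it. Cutadapt, HISAT2 2.0.5, StringTie, STAR 2.5.2b and GRCm38 are named in the submitters' processing notes, without roles, and with an annotation not given in the sources used here. Libraries were made from total RNA with dUTP marking of strand, per the labels' protocols. Depth is unknown, so no counting interval is given. Each transcript reached 0.50 in one library, so weaker transcripts are not analysed here.

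Of 23178 transcripts, 23128 matched GENCODE M21 (GRCm38, coordinates 1-based) by identifier without version, 50 did not, and matched values were summed per gene symbol (pandas 2.3.3). Log2 ratios used a pseudocount of 1 and kept genes that reached 1 FPKM in either library. Comparison scripts were tested on simulated data. Levels are FPKM, and differences are log2 ratios.

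Named genes are the 6 highest and 6 lowest members at a mean of 5 FPKM or more, the 4 most abundant, paralog pairs, X-linked members, members with opposite transcripts at 1 FPKM or more, and the 2 highest and 2 lowest of each list; others were chosen after their values were seen. Members and lists were chosen with earlier results of these data known. Alternatives were other pseudocounts, filters, scalings and transcript choices. Some genes that this rule names are not reported here.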

Additional observations from a re-analysis of the deposited data

How the results depend on the processing

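No paired analysis was possible because both groups had 1 library. The median log2 ratio of the 84 ribosomal protein genes stayed between -0.02 and 0.04 over the 12 alternatives, of which complete transcripts only and values times transcript length were chosen after seeing the data. The count of 1 gene higher at 1.5-fold became 0 at a pseudocount of 5 and 2 with quantile normalization. The count of 1 gene lower became 3 with the most abundant transcript only, which added Rps10 and Rps27a. The transcript of Rps27a then left out had a log2 ratio of 2.38, and those of Rps10 had ratios of 0.06 and 0.23. All other counts of members and list medians that were recomputed stayed within 1.5 times or 0.1 log2 units (129 values). Rpl22l1 kept its direction throughout, between -1.19 and -0.89. Of the named genes, 608 values stayed within 1 SD of genes at their level and 23 did not, among them Rps19 (0.45 with the most abundant transcript only) and Eif4e, and the log2 ratio of Tsc2 became -0.44 with complete transcripts only. The cause of those shifts was not tested. No depth is known, and with 1 library per group no spread between animals can be set beside any value.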
